A study of Mus musculus with 2 samples.

Results

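The cells described here were the mast cells of subcutaneous CT26 tumors, which were marked by *Cma1*, *Fcer1a* and *Mrgprb2*. CT26 is a mouse colon carcinoma line. They were selected on measured values. A barcode was counted as a mast cell when fewer than 20% of its unique molecular identifiers (UMIs, each standing for 1 captured RNA molecule) were mitochondrial, when *Cma1*, *Cpa3*, *Mcpt4* and *Tpsb2* together held at least 50 of every 10000 UMIs, and when it held no UMI of *Cd3d*, *Cd3e* or *Cd3g*. This gave 50 mast cells among 13939 barcodes that passed the mitochondrial limit (14777 barcodes in all), 23 from untreated tumors (UT) and 27 from tumors treated with BUP-Gel. Since the levels of the 4 granule genes chose the cells, those levels are given as a description.

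The 2 libraries came from single-cell RNA sequencing of the 5′ ends of transcripts in sorted live cells of CT26 tumors, grown under the skin of the left flank of male BALB/c mice aged 6 to 8 weeks. UT mice carried the tumor and received no gel. BUP-Gel mice received a single hydrogel dose carrying bupivacaine, a local anesthetic that blocks sodium channels in nerve fibers, at 40 mg/kg. For each library 3 tumors were pooled, and sorted CD45+ and CD45- cells were mixed, at 4 parts to 1 by the sample labels and 3 parts to 1 by the methods text, so CD45+ cells were enriched by design. No empty gel arm was sequenced in the samples used here, and therefore gel and drug cannot be told apart. With 1 library per group no test between UT and BUP-Gel was possible. All intervals below are exact 95% intervals that cover counting error only and leave out differences between mice and between libraries. Intervals of UMI levels and ratios also leave out differences between cells.

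Mast cells are resident immune cells that store histamine, serotonin and proteases bound to heparin in cytoplasmic granules and release them when IgE on the receptor FcεRI, or the receptor MRGPRB2, is engaged. In mice, connective tissue mast cells carry the chymases encoded by *Cma1* and *Mcpt4*, the carboxypeptidase encoded by *Cpa3* and tryptases, whereas mucosal mast cells carry the proteases encoded by *Mcpt1* and *Mcpt2*. Their survival depends on KIT, the receptor of stem cell factor, and the transcription factors GATA2 and MITF act on many mast cell genes. Because mast cells lie beside nerve fibers in skin, receptors for neuropeptides and neurotransmitters were among the gene groups read here.

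GATA factors bind a short sequence, and the promoters of 5 genes with high ratios of mast cells to other barcodes are printed here to show where its letters occur. Each sequence covers the 250 bases before the annotated transcription start (RefSeq, GRCm38.p6), reads 5′ to 3′ on the strand of the gene, and has AGATAA or TGATAA, or their reverse complements TTATCT and TTATCA, in capitals. *Ms4a2*, which encodes the β chain of FcεRI (chr19:11623720-11623969, minus strand), held 3 such matches, beginning 224, 37 and 11 bases before the start. *Fcer1a*, the IgE-binding α chain (chr1:173227230-173227479, minus strand), held 1 at 92 bases. *Mcpt4* (chr14:56062311-56062560, minus strand) held 1 at 103 bases, and *Cpa3* (chr3:20242182-20242431, minus strand) held 1 at 46 bases. *Cma1* (chr14:55944676-55944925, minus strand) held none of these words in this window. Related words were not searched, such as AGATAG, whose reverse complement CTATCT occurs in the *Cma1* sequence.
Ms4a2: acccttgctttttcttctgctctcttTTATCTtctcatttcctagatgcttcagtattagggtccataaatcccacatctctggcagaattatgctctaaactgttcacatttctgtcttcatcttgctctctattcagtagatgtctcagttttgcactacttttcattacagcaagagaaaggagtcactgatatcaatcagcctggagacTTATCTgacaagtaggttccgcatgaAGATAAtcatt
Fcer1a: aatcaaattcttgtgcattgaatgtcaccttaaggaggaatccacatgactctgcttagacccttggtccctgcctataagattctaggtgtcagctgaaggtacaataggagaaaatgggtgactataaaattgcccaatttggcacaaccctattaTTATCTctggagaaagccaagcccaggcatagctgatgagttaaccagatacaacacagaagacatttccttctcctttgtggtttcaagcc
Mcpt4: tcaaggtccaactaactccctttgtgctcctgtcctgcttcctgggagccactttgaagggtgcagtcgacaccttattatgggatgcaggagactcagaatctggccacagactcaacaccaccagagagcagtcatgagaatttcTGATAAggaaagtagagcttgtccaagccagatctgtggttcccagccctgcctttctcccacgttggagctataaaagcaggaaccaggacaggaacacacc
Cpa3: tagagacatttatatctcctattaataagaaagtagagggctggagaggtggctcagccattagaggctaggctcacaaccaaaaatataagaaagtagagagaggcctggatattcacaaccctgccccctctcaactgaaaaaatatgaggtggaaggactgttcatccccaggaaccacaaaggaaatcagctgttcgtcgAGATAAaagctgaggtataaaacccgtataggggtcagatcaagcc
Cma1: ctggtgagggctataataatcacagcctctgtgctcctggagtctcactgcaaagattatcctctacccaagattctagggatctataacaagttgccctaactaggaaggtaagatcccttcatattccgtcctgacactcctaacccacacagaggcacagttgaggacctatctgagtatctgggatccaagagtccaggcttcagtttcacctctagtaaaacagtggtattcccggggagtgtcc

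Of the 25 genes with the highest ratio of mast cells to all other barcodes, 20 had a promoter in the table, and 8 of these held a GATA match, namely *Mcpt4*, *Fcer1a*, *Mrgprb2*, *Ms4a2*, *Cpa3*, *Cd200r3*, *Cobl* and *Papss2*. For comparison, 18.8% of all 27025 genes in the table (16.6% of 32851 promoters) held one. *Mcpt4* and *Cpa3*, with a match, and *Cma1*, without one, were genes of the selection and are counted among the 20. The letters CACGTG or CATGTG on either strand, which MITF-type factors bind, were found for 5 of the 20 (*Fcer1a*, *Cyp11a1*, *Slc6a4*, *Ctsg* and *Adora3*) and for 19.8% of all genes. The promoters were matched by gene symbol, the same genes carry both motifs only in the case of *Fcer1a*, and a match describes letters and is no binding site.

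Mast cells made up 0.321% of the barcodes kept in the UT library (23 of 7163, interval 0.204 to 0.481%) and 0.398% in the BUP-Gel library (27 of 6776, 0.263 to 0.579%). The difference of 0.0774 percentage points had an interval from -0.133 to 0.293, which includes 0. Taking barcodes with leukocyte genes as the denominator gave 0.317% (19 of 5998) and 0.524% (23 of 4391), with an interval of the difference from -0.0540 to 0.497 points. *Ptprc*, which encodes CD45, was detected in only 13 of the 50 mast cells, 7 UT and 6 BUP-Gel, and in 5 of 50 (10.0%) after each cell was thinned to 500 UMIs.

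The mast cells were shallow. They held a median of 1005 UMIs (556 to 9665) against 9336 over all kept barcodes, and 25 of the 50 had fewer than 1000 UMIs, whereas 587 of the 13939 kept barcodes did. The median was 1580 UMIs in UT mast cells (676 to 9665) and 882 in BUP-Gel mast cells (556 to 8466), with 7 of 23 and 18 of 27 cells under 1000. Mitochondrial UMIs made up a median of 4.13% (0.933 to 15.4%), against 2.46% over all kept barcodes. Requiring at least 1000 UMIs and 500 genes left 16 UT and 9 BUP-Gel mast cells, and the order of the shares turned, at 0.238% and 0.139%.

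**Figure D1:**
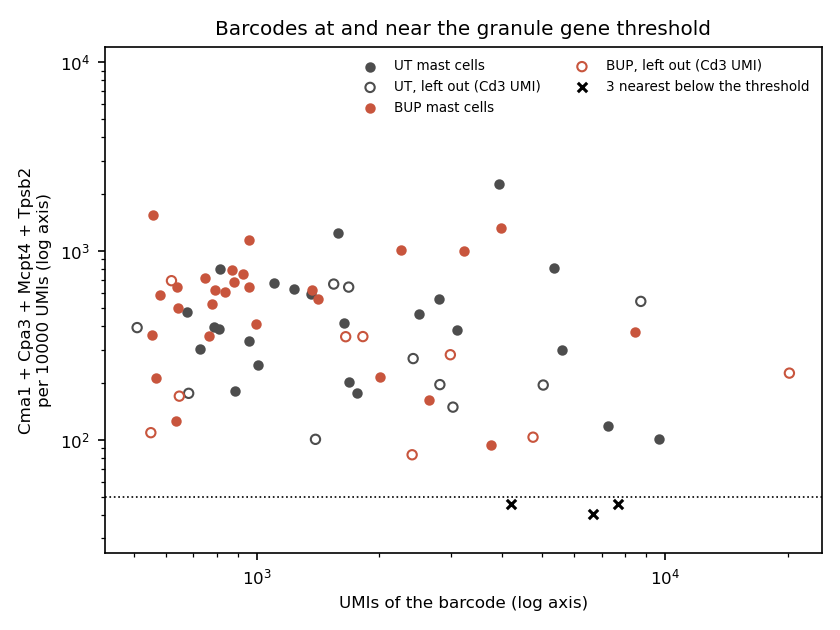
Each barcode at or near the selection threshold, with its UMIs (x axis, log scale) against the 4 granule genes per 10000 UMIs (y axis, log scale). Filled points are the 23 UT and 27 BUP-Gel mast cells, open circles the 19 barcodes left out for a *Cd3* UMI, crosses the 3 nearest barcodes below the dotted threshold of 50, and the gap between 45.6 and 93.3 holds no barcode without a *Cd3* UMI.

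A granule sum of 100 per 10000 gave 49 mast cells and one of 20 gave 60. The mast cells just inside the limit of 50 had granule sums of 93.3, 101 and 119 per 10000 UMIs and the barcodes just outside had 45.6, 45.4 and 40.6. The *Cd3* criterion left out 19 barcodes (10 UT and 9 BUP-Gel) that passed the granule sum. Of these, 11 held exactly 1 *Cd3* UMI, only 2 held a *Trac* UMI, and 17 carried at least 3 of 10 mast cell markers that the selection did not use. Their median depth was 1821 UMIs (510 to 20167). No doublet caller was run, and what these barcodes were was not tested.

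All 50 selected cells carried at least 1 of those 10 other markers (*Fcer1a*, *Ms4a2*, *Kit*, *Hdc*, *Mrgprb2*, *Gata2*, *Slc18a2*, *Hpgds*, *Il1rl1* and *Cd200r3*), and 46 carried at least 3 of them (23 of 23 UT and 23 of 27 BUP-Gel). Among the 13889 other kept barcodes, 3 or more were carried by 111 below the granule threshold and by 17 of the 19 *Cd3*-bearing ones. The basophil list (*Mcpt8*, *Prss34*, *Cd200r3*, *Itga2*) gave 53 UMIs in 27 mast cells. This was 530 per 1000000 UMIs, against 3.28 in the other kept barcodes. *Cd200r3*, which also stands among the 10 markers, was found in 23 mast cells and *Itga2* in 5. The basophil proteases *Mcpt8* and *Prss34* gave 1 UMI in 1 mast cell. The T cell list (*Cd3d*, *Cd3e*, *Cd3g*, *Trac*, *Cd8a*), the B cell list and the eosinophil list gave 0 UMIs in all 50 cells. The *Cd3* genes were at 0 by selection, which also bears on *Trac* and *Cd8a*. In the other kept barcodes the B cell and eosinophil lists had 21.2 and 3.00 per 1000000 UMIs. A count of 0 here allows up to 30.0, so these zeros say little. The label was kept for these cells on the mast cell markers.

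Genes of other lineages were not absent. The macrophage list (*C1qa*, *C1qb*, *C1qc*, *Apoe*, *Ms4a7*, *Lyz2*, *Adgre1*) gave 186 UMIs in 39 mast cells, or 1860 UMIs per 1000000 UMIs of the class (CPM) against 34449 CPM in barcodes high in *C1qa*, *C1qb* and *C1qc*, and *Adgre1* was at 0. Its summed level was 1451 CPM in UT and 2407 CPM in BUP-Gel mast cells. Most of its UMIs were of *Apoe* (99 UMIs in 36 cells) and *Lyz2* (59 UMIs in 16 cells). *C1qa*, *C1qb* and *C1qc* were found in only 5, 6 and 2 cells. The macrophage list alone reached 3 or more UMIs in 21 mast cells. The natural killer (NK) cell list (*Ncr1*, *Klrb1c*, *Gzma*, *Prf1*) gave 481 UMIs in 9 cells, of which 357 lay in a single BUP-Gel cell of 8466 UMIs, and *Klrb1c* was at 0. In all, 22 mast cells (12 UT and 10 BUP-Gel) held 3 or more UMIs of a list other than the basophil one, which contains *Cd200r3*. These cells were deeper, with a median of 2254 UMIs against 885 in the other 28.

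The gene profile of mast cells was read against all 13889 other kept barcodes, with a gene included if it had at least 20 UMIs in at least 5 mast cells. Of 663 such genes, 75 were at least 4-fold higher in mast cells (11.3%) and 10 at least 4-fold lower (1.51%), and the median log2 ratio was 0.18. These are descriptions of the cells that were chosen and carry no test. The filter counts UMIs of mast cells only, so a gene rare elsewhere passes only where mast cells hold more of it. Counts of higher genes within the lists below are therefore descriptions too, to be read beside the 11.3%. The other barcodes included the 19 *Cd3*-bearing ones over the granule threshold, and the ratios depend on these. They held 947 *Tpsab1* and 48 *Fcer1a* UMIs, against 1191 and 23 in the remaining ones. Named side by side are 4 comparison classes, namely barcodes without a *Cd3* UMI that were high in *C1qa*, *C1qb* and *C1qc* (1765), high in *S100a8* and *S100a9* (1015) or carried *Ncr1* (702), and barcodes in which *Ogn* and *Aspn* together held at least 2 of every 10000 UMIs (1665). Of the 75 genes, 21 belonged to the lists of mast cell functions and 32 were seen in at least 25 of the 50 cells. The granzyme genes *Gzmf*, *Gzma*, *Gzmc* and *Gzmd* were also among the 75, in 7 to 10 cells. For each of them 68.9 to 90.9% of the UMIs lay in 1 cell. The 10 lower genes were *Lgals3*, *Cmss1*, *Psap*, *Ly6e*, *Ctsb*, *Fn1*, *Ifitm3*, *Ctsl*, *Lyz2* and *Cdk8*, several of which encode lysosomal or secreted proteins abundant in macrophages.

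Granule proteases came first. The 4 genes of the selection held 20772 CPM (*Cma1*, 19888 to 21684), 14461 CPM (*Mcpt4*), 14991 CPM (*Tpsb2*) and 3900.3 CPM (*Cpa3*), and 48 of 50 cells carried all of them. *Tpsab1*, a second tryptase that the selection did not use, was found in every mast cell at 32532 CPM (31424 to 33669.8) against 12.4 CPM elsewhere, a 2614-fold difference. *Tpsab1* and *Tpsb2* have similar sequences, and how reads were split between them is uncertain. *Ctsg*, the cathepsin G gene, had 41 UMIs in 13 cells (410.0 CPM, 57.6-fold above the rest). Of 12 genes in the protease list 7 passed the filter and 6 were at least 4-fold higher, the exception being *Gzmb* at 2.62-fold. The median log2 ratio of the 7 was 11.27, with 4 of them used in the selection.

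The mucosal protease genes were nearly absent. *Mcpt1* gave 24 UMIs that all lay in 1 UT mast cell of 5342 UMIs, which also held 228 *Cma1* and 69 *Mcpt4* UMIs, and gave 0 UMIs in every other kept barcode. *Mcpt2* gave 5 UMIs in 4 cells and *Mcpt9* gave 0 of 99993 UMIs, which allows up to 30.0 CPM. In position, *Cma1* (chr14:56178908-56182132), *Mcpt4* (chr14:56297086-56299770), *Mcpt1* (chr14:56255428-56257841) and *Ctsg* (chr14:56337338-56340031) lie close together on chromosome 14, all but *Mcpt1* on the minus strand (GENCODE annotation, GRCm39).

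Genes that make and load the granule content followed. *Tph1*, which encodes the enzyme that commits tryptophan to serotonin outside the brain, had 83 UMIs in 36 of 50 cells, 830.1 CPM and a 3241-fold ratio, which on the log2 scale is 11.66 (11.12 to 12.22). *Slc6a4*, the serotonin transporter gene, was 976-fold higher (25 UMIs in 15 cells). *Hdc*, which encodes histidine decarboxylase, the enzyme that makes histamine, stood at 2070.1 CPM in mast cells. Other cells shared this level, since barcodes high in *S100a8* and *S100a9* had 1534 CPM, and mast cells held only 1.53% of all *Hdc* UMIs. *Srgn*, the core protein that carries heparin, was 3.45-fold higher, below the 4-fold limit. Of the 10 genes in the list of granule matrix and amine handling, 3 passed the filter and 2 were at least 4-fold higher. Its heparan sulfate genes *Ndst1*, *Ndst2*, *Hs6st1* and *Glce* were found in 4, 5, 3 and 1 of 50 cells and did not pass. Nor did *Slc18a2* (11 cells), *Ddc* (6) and *Maob* (9). Outside the list, genes of heparan sulfate and sulfate donor synthesis were among the 25 highest ratios, namely *Hs6st2* (321-fold), *Hs3st1* (264-fold) and *Papss2* (128-fold). *Cyp11a1*, which encodes the enzyme that begins steroid synthesis from cholesterol, was 1470.2-fold higher with 83 UMIs in 22 cells.

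Surface receptors came next. *Fcer1a* had 152 UMIs in 30 cells, 1520.1 CPM against 0.413 CPM in the rest, a log2 ratio of 11.84 (11.43 to 12.27). After thinning to 500 UMIs it was detected in 42.0% of mast cells and in 0 of 1765 *C1q*-high barcodes, where 3 barcodes would be a share of 0.170%. Without thinning it was detected in 60.0% of mast cells and in 6 *C1q*-high barcodes (0.340%), whose median depth was 12820 UMIs. *Ms4a2* was 1779.5-fold higher with 29 UMIs, whereas *Fcer1g*, the shared γ chain that macrophages and NK cells also use, was only 2.24-fold higher. *Kit* (64 UMIs in 33 cells) was 62.3-fold higher, and *Il1rl1*, which encodes the interleukin 33 receptor ST2, was 24.4-fold higher. *Adora3*, an adenosine receptor gene, was 45.2-fold higher. Of the complement receptors, *C5ar1* gave 0 UMIs and *C3ar1* 2. Over the 16 genes of the list, 7 passed the filter and 5 were at least 4-fold higher, with a median log2 ratio of 5.50 beside 0.18 over all genes.

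Of 17 receptors for neuropeptides and neurotransmitters, 3 passed the filter and all 3 were at least 4-fold higher, beside 11.3% of all 663 genes. In the other barcodes *Mrgprb2* had 0.0990 CPM, *Mrgprb1* 0.297 CPM and *Ramp1* 12.7 CPM. Genes this rare elsewhere pass the filter only when they are high in mast cells, so this count is no result about the group. *Mrgprb2*, which encodes the receptor for substance P and cationic drugs on mouse connective tissue mast cells, had 35 UMIs in 21 cells (3537-fold), a log2 ratio of 11.79 (10.91 to 12.72). Its neighbor in the same family *Mrgprb1* had 84 UMIs in 32 cells (2829.9-fold). *Ramp1*, the partner of the receptor for calcitonin gene-related peptide, had 38 UMIs in 25 cells and was 30.0-fold higher. *Calcrl*, which encodes that receptor itself, gave 1 UMI. The muscarinic genes *Chrm1* to *Chrm5*, the nicotinic genes *Chrna7* and *Chrnb2*, *Tacr1*, *Vipr1*, *Vipr2* and *Mrgprb8* gave 0 UMIs, which allows up to 30.0 CPM for each. Expression of acetylcholine receptors below that level was not detectable at this depth.

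Inside the cell, *Lat* (11.4-fold, 30 UMIs) and *Lat2* (8.40-fold, 68 UMIs), the adaptors that gather signaling proteins below FcεRI, were higher, while *Lyn*, the kinase that starts the cascade, was 1.22-fold. Of 14 signaling genes 5 passed the filter, 2 of them at least 4-fold higher. Among transcription factors *Gata2* was 76.0-fold higher (51 UMIs in 27 cells) and *Mitf* 2.90-fold, whereas *Gata1* gave 1 UMI and its partner *Zfpm1* gave 0. Lipid mediator enzymes were sparse. *Alox5ap*, the activator of leukotriene synthesis, was 1.65-fold with 82 UMIs, and *Hpgds*, the hematopoietic prostaglandin D synthase gene, had 15 UMIs in 10 cells.

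Chemokines followed. *Ccl7*, which attracts monocytes, had 735 UMIs in 44 of 50 mast cells, 7351 CPM (6829 to 7902) against 2863 CPM in *C1q*-high barcodes and 854 CPM over all others, where the log2 ratio was 3.11 (3.00 to 3.21). Thinned to 500 UMIs, *Ccl7* was detected in 76.0% of mast cells and 50.5% of *C1q*-high barcodes. *Ccl2*, another monocyte attractant, was found in 41 mast cells at 2890.2 CPM, 1.81-fold above the rest. It was detected in 82.0% of mast cells and 91.6% of *C1q*-high barcodes, and in 56.0% and 60.5% after thinning to 500 UMIs. Of the 21 genes of the cytokine and chemokine list 5 passed the filter, the others being *Ccl4* (70 UMIs in 9 cells), *Tgfb1* (25 UMIs in 17 cells, 1.28-fold) and *Csf1* (22 UMIs in 13 cells, 1.62-fold). *Il4* gave 10 UMIs, *Tnf* 5, *Il6* 1 and *Il13* 1, whereas *Il5*, *Il9*, *Csf2*, *Lif* and *Areg* gave 0. Of the immediate early genes *Jun* was 4.27-fold higher and *Fos* 0.994-fold. Cell cycle genes had 23 UMIs in all over 8 genes, and none passed the filter.

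**Figure D2:**
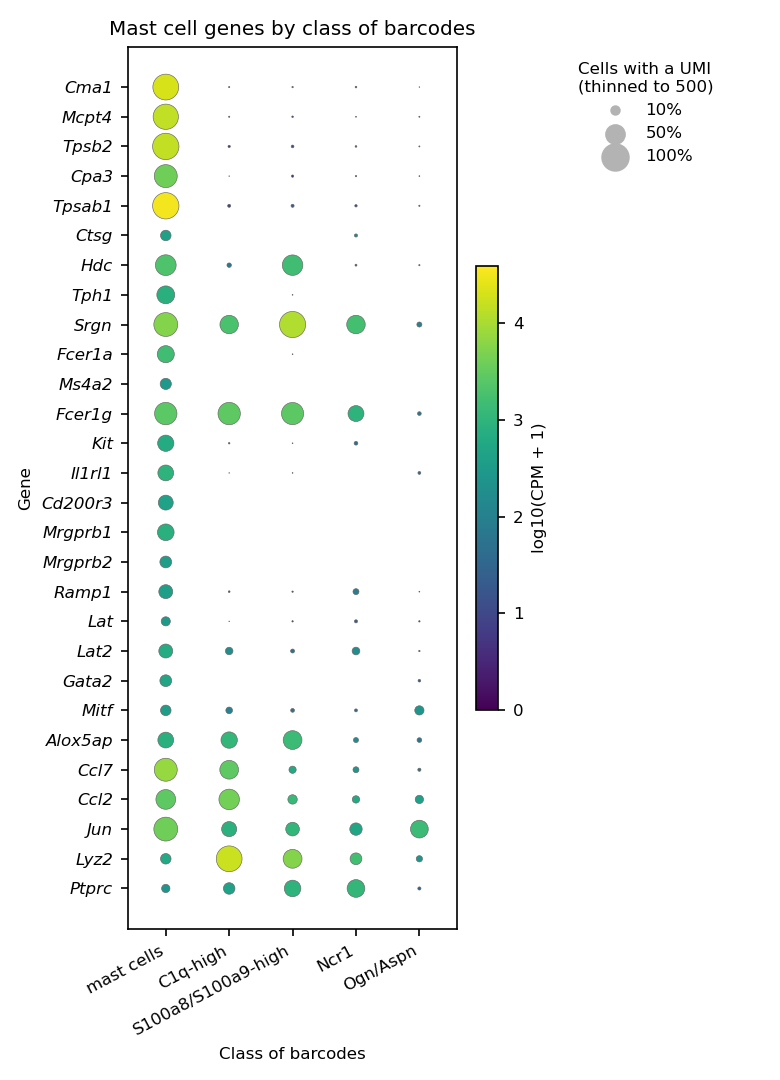
Genes of mast cell functions (rows) in mast cells and in 4 comparison classes of barcodes (columns), with color for log10(CPM + 1) of the summed UMIs and dot area for the percent of barcodes with a UMI after thinning each to 500 UMIs. *Fcer1a*, *Tph1*, *Mrgprb1* and *Mrgprb2* appeared in the mast cell column almost alone, while *Hdc*, *Srgn*, *Fcer1g*, *Ccl7* and *Ccl2* were shared with other classes.

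Even in these deeper barcodes *Mrgprb2* and *Tpsab1* were seldom found. *Mrgprb2* was detected in 42.0% of mast cells and in 0.0567% of *C1q*-high barcodes without thinning, and *Tpsab1* in 100% and 8.22%. *Kit* was also detected in 23.9% of *Ncr1* barcodes (1.99% thinned) against 66.0% of mast cells (38.0% thinned).

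The mast cells differed among themselves in how much granule RNA they held. The 4 selection genes made up 5.12% of the UMIs of the median cell and ranged from 0.933 to 22.6%. In UT cells the median was 3.94% (1.01 to 22.6%) and in BUP-Gel cells 6.08% (0.933 to 15.6%). The ranges overlapped, and the UT maximum came from 1 cell, the next UT cell having 12.5%. The spread of counts around the value expected at the depth of each cell, divided by that value, was 55.5 for *Mcpt4*, 55.0 for *Tpsab1*, 26.3 for *Cma1* and 22.6 for *Ccl7*, against a median of 2.05 over 239 genes. One UT cell held 26.1% of all *Mcpt4* UMIs. The highest value, 241 for *Gzmf*, came from 1 cell, since 90.9% of the *Gzmf* UMIs lay in the deepest BUP-Gel mast cell. That barcode, with 8466 UMIs, held 1210 *Gzmf*, 334 *Gzma* and 149 *Gzmd* UMIs, granzyme genes of cytotoxic cells, beside 115 *Cma1* and 98 *Mcpt4* UMIs.

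**Figure D3:**
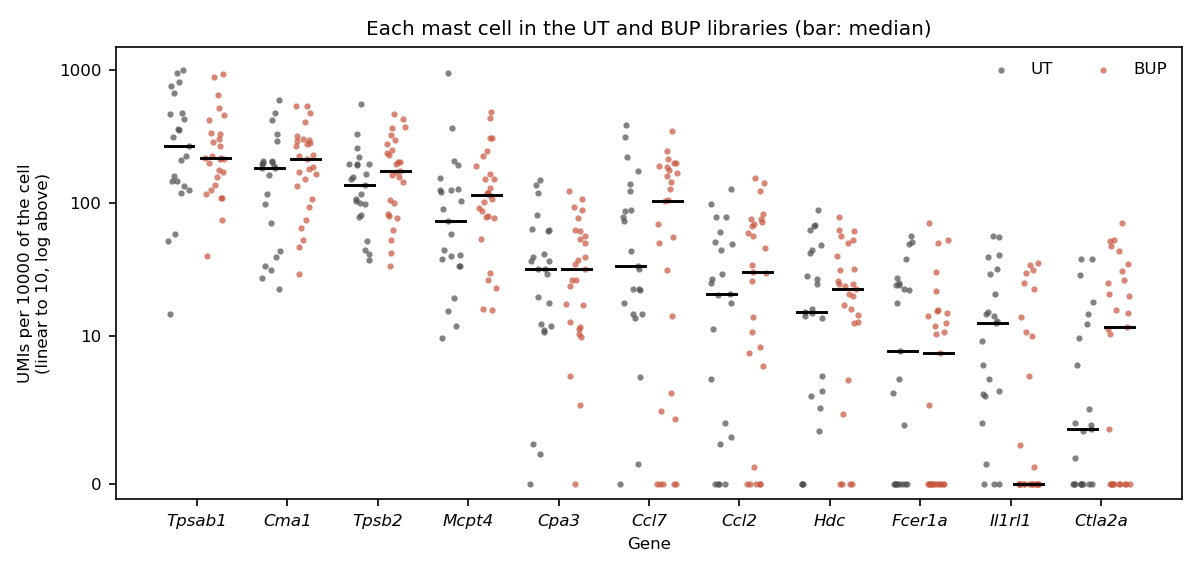
UMIs of 11 genes per 10000 UMIs of the cell (y axis, linear to 10 and log above) in each of the 23 UT (gray) and 27 BUP-Gel (red) mast cells, with a bar at the median. The libraries overlapped for every gene plotted, the *Il1rl1* median was 12.7 in UT and 0 in BUP-Gel, and the *Ctla2a* median was 3.74 in UT and 11.8 in BUP-Gel.

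UT and BUP-Gel mast cells were then compared as 2 sums of 57196 and 42797 UMIs. Their depth sets a floor of 52.5 and 70.1 CPM for a count of 0. Of 239 genes with at least 50 UMIs in at least 10 mast cells, 9 were at least 2-fold higher in BUP-Gel (3.77%) and 10 at least 2-fold lower (4.18%). Their intervals all left out 0 on the log2 scale, but these treat UMIs of the same cell as independent. The spread among cells described above, with a median of 2.05 over the 239 genes, is not covered by them. The median log2 ratio over the 239 genes was -0.10. Each sum comes from 1 library of 3 pooled tumors, so these ratios compare the libraries and not the treatments.

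The granule genes that passed the filter, *Gzmb* aside, had log2 ratios from -0.07 to 0.37 between the libraries. The log2 ratio of BUP-Gel to UT was 0.20 for *Cma1* (0.07 to 0.33), 0.23 for *Mcpt4*, 0.37 for *Tpsb2* and -0.07 for *Cpa3*. *Tpsab1*, outside the selection, had a ratio of 0.03 (-0.07 to 0.13), and its median per cell was 272 per 10000 UMIs in UT and 219.8 in BUP-Gel, with maxima of 1011 and 934. *Hdc* had 0.10 (-0.32 to 0.50) and *Fcer1a* 0.08 (-0.41 to 0.55). *Ctsg*, below the filter at 41 UMIs, had a lower level in BUP-Gel, with 34 UMIs in 8 UT cells and 7 in 5 BUP-Gel cells.

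*Il1rl1* was the only one of 6 receptor genes with enough UMIs that stood at least 2-fold apart. It had 70 UMIs in 20 of 23 UT cells, 1224 CPM, and 23 UMIs in 12 of 27 BUP-Gel cells, 537 CPM. The log2 ratio was -1.19 (-1.93 to -0.49). Per 10000 UMIs the cells ranged from 0 to 56.7 in UT and from 0 to 35.8 in BUP-Gel, so the libraries overlapped. With each cell thinned to 500 UMIs, 12 of 23 UT cells and 6 of 27 BUP-Gel cells carried *Il1rl1*. Without the mast cells that held other lineages' UMIs the ratio was -0.58, below the 2-fold limit, while the median over the genes compared moved from -0.10 to 0.24. *Kit* (-0.51, -1.33 to 0.26) and *Mrgprb1* (-0.43, -1.12 to 0.24) had intervals that included 0. *Pde4d*, which encodes a phosphodiesterase that degrades cyclic AMP, was lower in the BUP-Gel sum at -1.04 (-1.63 to -0.49, 102 and 37 UMIs). Its median per cell was close in the libraries, at 12.4 per 10000 UMIs in UT (0 to 179) and 10.1 in BUP-Gel (0 to 35.8). Its spread among cells, as described above, was 11.7.

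Among the genes higher in BUP-Gel, *Ctla2a*, which encodes an inhibitor of cysteine proteases, was found in 31 of the 50 mast cells. It had 37 UMIs in 14 UT cells (647 CPM) and 85 in 17 BUP-Gel cells (1986 CPM), a log2 ratio of 1.62 (1.05 to 2.22). Thinned to 500 UMIs it was found in 9 of 23 and 15 of 27 cells. With the *Cd3*-bearing barcodes included the ratio was 0.44, an alternative chosen after seeing the data. *Ctla2a* was also 12.1-fold higher in mast cells than in the rest, and *Ncr1* barcodes had 981 CPM. *Ost4*, a subunit of the oligosaccharyltransferase, and *Sh3bgrl3* had ratios of 1.30 and 1.27. *Ccl7* had 0.33 (0.12 to 0.54) in the sums, with a median per cell of 34.0 per 10000 UMIs in UT (0 to 391) and 104 in BUP-Gel (0 to 351).

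Ratios of *Gzmf*, *Cd74* and *Gzmb* rested largely on single cells. *Gzmf* had 118 UMIs in UT and 1213 in BUP-Gel, and 1210 of the latter lay in the cell described above. *Cd74*, the invariant chain of antigen presentation, had 8 and 56 UMIs, with 70.3% of all in 1 BUP-Gel cell that also held 23 *Lyz2* UMIs. *Gzmb* was lower in BUP-Gel (54 and 20 UMIs), with 60.8% of all in 1 UT cell. *Nfkbia* (-1.44, 47 and 13 UMIs), *S100a6* (-1.24, 139 and 44 UMIs) and *Def8* (-1.84, 62 and 13 UMIs) had 31.7, 30.6 and 49.3% of their UMIs in 1 cell. Without the deepest mast cell of each library 9 genes remained 2-fold apart among the 212 still passing the filter, 8 of them among the 19 above, and the *Gzmf* ratio turned to -4.80.

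Ribosomal protein genes were read as a group after their values were seen. Of 75 such genes that passed the filter, 68 had a log2 ratio below 0, with a median of -0.36, against 58.2% of all 239 genes. *Rpl22l1*, *Rplp0*, *Rpl12* and *Rpl8* were at least 2-fold lower. In the median cell, however, ribosomal UMIs made up 13.2% in UT (2.06 to 30.0%) and 14.6% in BUP-Gel (5.95 to 26.0%), and in the other kept barcodes the median was 10.4% in UT and 17.0% in BUP-Gel. The group difference in the sums thus did not hold for the median cell. Without the mast cells that held other lineages' UMIs *Rplp0*, *Rpl12* and *Rpl8* had ratios of 0.24, 0.16 and 0.032, where the median over the genes compared had moved from -0.10 to 0.24, so these genes lay at or below that median.

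**Figure D4:**
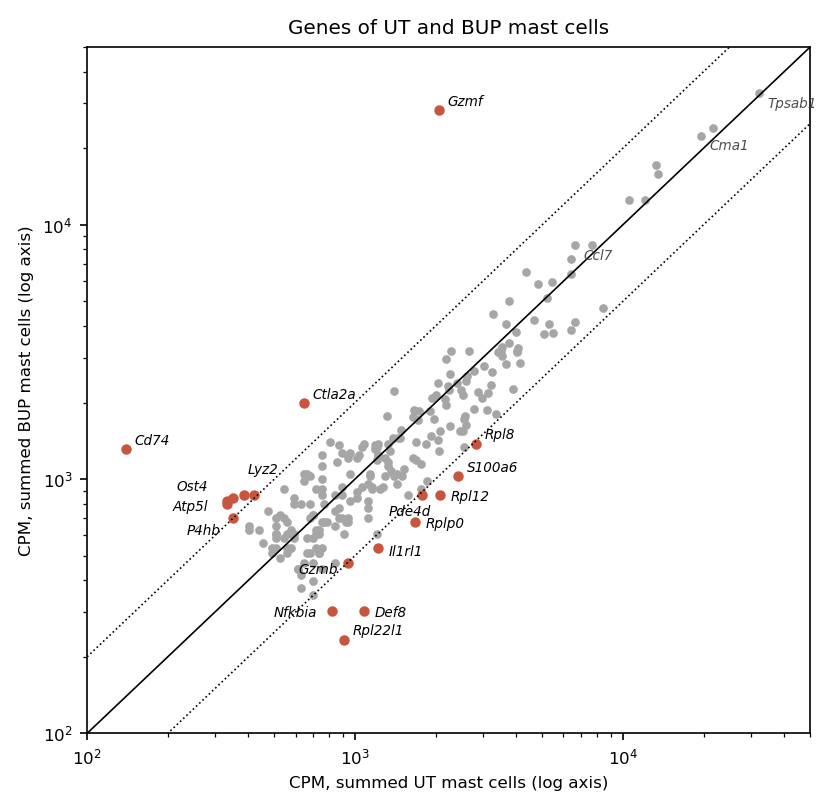
CPM of 239 genes in the summed UT (x axis) and BUP-Gel (y axis) mast cells, both on log scales, with a solid line at equality and dotted lines at 2-fold. The 19 genes beyond 2-fold are red, *Sh3bgrl3* and *Atp6v0e* being unlabeled, and *Tpsab1*, *Cma1* and *Ccl7* lie near the line.

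Mast cell granule RNA was also found outside the mast cells. The 50 cells held 66.0% of all *Cma1* UMIs in the kept barcodes and 60.3% of *Tpsab1* UMIs, the 19 *Cd3*-bearing barcodes 24.6% and 17.6%, and all others 9.37% and 22.1%. Among barcodes with a granule sum under 20 per 10000, the 4 genes reached 11.6 CPM in UT (10.9 to 12.4) and 2.57 CPM in BUP-Gel (2.25 to 2.92), and 11.5% and 2.95% of the barcodes carried at least 1 UMI. The level was higher in UT in each of the 4 comparison classes. It was 9.64 and 2.69 CPM in *C1q*-high, 38.0 and 5.67 CPM in *S100a8*/*S100a9*-high, 16.1 and 6.76 CPM in *Ncr1* and 9.43 and 2.19 CPM in *Ogn*/*Aspn* barcodes for UT and BUP-Gel. The shallower *S100a8*/*S100a9*-high barcodes, with a median of 2341 UMIs, had the highest level of the 4 classes in UT, and *Ncr1* barcodes in BUP-Gel. The selected mast cells numbered 23 in UT and 27 in BUP-Gel. The 4 genes made up 5.03% of their 57196 UMIs in UT and 5.92% of their 42797 UMIs in BUP-Gel. The source of the granule UMIs outside the mast cells was not tested.

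**Figure D5:**
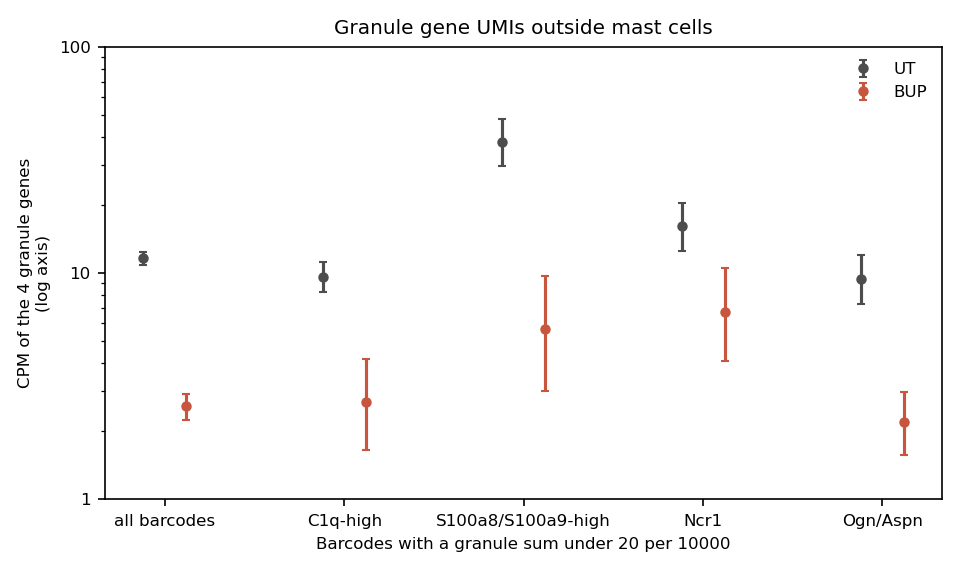
CPM of *Cma1*, *Cpa3*, *Mcpt4* and *Tpsb2* together (y axis, log scale) in barcodes with a granule sum under 20 per 10000 UMIs, over all such barcodes and in 4 classes, for UT (gray) and BUP-Gel (red). Bars are exact 95% Poisson intervals, and in every class the UT level, from 9.43 to 38.0 CPM, lies above that of BUP-Gel, from 2.19 to 6.76 CPM.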

How the data were processed

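Single cells of CT26 tumors were sequenced in 2 libraries (UT and BUP-Gel) with 10x Genomics 5′ chemistry. Per the labels and file headers, the authors made UMI count matrices with Cell Ranger 8.0.1 on GRCm39, and the deposited values are raw counts per gene and barcode. Kept barcodes held 502 to 123360 UMIs.

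From these counts, mast cells were selected by the rule in the report. UMIs were summed per class and library and divided by the class total (CPM). Ratios have exact conditional 95% intervals, levels exact Poisson and shares exact Clopper-Pearson intervals, and differences of shares combine the bounds of both shares. They cover counting error only. A count of 0 has a floor of 3 UMIs. Named genes were those of the lists, the 25 with the highest ratio to other barcodes (20 UMIs in 5 cells), the 20 with most UMIs, and the 5 highest and 5 lowest BUP-Gel to UT ratios (50 UMIs in 10 cells). Other genes named were chosen after their values were seen. The members and lists were chosen with earlier results of these data known. Both libraries kept 68 barcode sequences in common, 1 of them a mast cell's. Shares of cells with a UMI were also computed with each cell thinned to 500 UMIs at random, which left out no cell. No doublet caller was run. Values of 2 genes of the receptor list are not reported here. The ratio functions were tested on simulated data. Counts were handled in pandas 2.3.3, intervals came from scipy 1.17.1 and plots from matplotlib 3.10.9 (Python 3.11.15).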

Additional observations from a re-analysis of the deposited data

How the results depend on the processing

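No paired analysis was possible because each group is 1 library. The mast cell count kept within 1.5 times of 50 under 5 of 6 alternatives (46 to 69) and was 25 with at least 1000 UMIs and 500 genes. The difference in share stayed inside its counting interval under all alternatives (-0.0989 to 0.207 points), with its sign turned only by that depth limit. The count of genes at least 4-fold higher, 75, was 31 with 50 UMIs in 10 cells, 822 with no minimum, 37 without mast cells holding other lineages' UMIs, and 47 when the basophil list was not used for this. The count of genes 2-fold apart, 19, was 93 with 20 UMIs in 5 cells, 9 without the deepest cell of each library, and 7 and 8 without the lineage-mixed cells by all lists and without the basophil one. These removals lower the number of genes tested. The cause of further shifts was not tested.

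Leaving out lineage-mixed cells moved the median log2 ratio of the genes compared from -0.10 to 0.24 (all lists) or 0.21, and the ratios given for it are not corrected for that shift. Ratios that changed sign were *Gzmf* (-4.80 without the deepest cells, and -1.99 and -1.22 without lineage-mixed cells by all lists and without the basophil one), *Def8* (0.50 and 1.27), *Nfkbia* (0.33 and 0.10), *Rplp0* (0.24 and 0.20), *Rpl12* (0.16 and 0.016), *Rpl8* (0.032, all lists) and *Lyz2* (-0.67, all lists). *Nfkbia* was 1.504 with *Cd3*-bearing barcodes kept. Alternatives with *Cd3*-bearing barcodes, other than the count of mast cells, and those without the basophil list were chosen after seeing the data. Depth limits the shares, as 12 of 13 shares of cells with a UMI fell below their intervals after thinning to 500 UMIs.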
